A study of Mus musculus with 3 samples.

Results

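The genes described here encode enzymes and carriers that keep peroxides, quinones and reactive carbonyls in check, many of them targets of the transcription factor NRF2. A list of 46 genes was drawn up by function. It covered NRF2 targets, the thioredoxin and glutathione systems, peroxiredoxins, superoxide dismutases and catalase, malic enzyme and pentose phosphate pathway enzymes, and ferritin subunits. Each gene was represented by the probe set with the highest mean among those annotated to its symbol alone, and 45 of the 46 had such a probe set, out of 19935 genes in all. Prdx5 had none and was not analysed here. No filter on low values was applied, so all 45 stayed in every count.

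The cells were NMuMG, an established epithelial line from mouse mammary gland, kept in puromycin. MAFK cells carried FLAG-tagged MafK in the pCAGIP vector and comprised stable clones 4 and 10, with 1 array each. Mock cells carried the pCAGIP vector without MafK and were measured on 1 array. The 3 Affymetrix arrays gave log2 RMA values, a background-corrected and quantile-normalised log2 intensity, with medians over all probe sets of 6.92 in clone 4, 6.93 in clone 10 and 6.89 in mock. Both clones were set against the same mock array, and the spread of mock cells was not measured. MAFK cells were clonal and mock cells are not labelled as clonal, so an effect of MafK and a difference that arose in cloning cannot be told apart. With so few arrays the precision is low. The labels do not say whether cultures were grown separately, and the spread behind each p-value is that between these arrays alone. In such bulk RNA, fewer cells that carry a transcript and less of it per cell cannot be told apart either. Of 10 epithelial markers, 6 were at or above the array median in each clone and 5 in mock. Against mock, 4 of the 10 were higher in both clones (Krt7, Krt19, Cldn3 and Cldn4) and 4 lower. Krt8, Krt18 and Krt19 read between 10.92 and 13.67 on all 3 arrays, and Krt18 was 1.93-fold lower in MAFK clones (limma adjusted p = 0.0972). Epcam read 5.58 on each array, below the medians. Cdh1, which encodes E-cadherin, fell 24.3-fold, to 6.85 in clone 4 and 6.64 in clone 10, against 11.35 in mock (limma adjusted p = 0.0282). Of 7 fibroblast markers, 4 lay below the median of each array. Among the 7, 4 were above mock in both clones (Col1a1, Col1a2, Col3a1 and Thy1) and 2 below it. Dcn, 1 of those below, was 3.91-fold lower in MAFK clones (limma adjusted p = 0.0711). The part of these marker differences in the values below was not tested. All 6 endothelial markers lay below the median of every array, as did 4 of 6 immune markers in each clone and 5 of 6 in mock.

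NRF2 is a CNC-type basic leucine zipper protein that binds antioxidant response elements as a dimer with a small MAF protein, MAFF, MAFG or MAFK. In unstressed cells KEAP1 holds NRF2 for ubiquitination and degradation, and BACH1 occupies the same elements with small MAF partners as a repressor. Small MAF proteins have no transactivation domain, so a MAFK homodimer can occupy such elements without activating transcription. The target enzymes make and recycle glutathione and thioredoxin, remove peroxides, conjugate or reduce electrophiles, and supply the NADPH on which these reactions draw.

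Antioxidant genes differed from mock in both directions, with a few large differences among many small ones. In both clones 5 of the 45 genes were at least 2-fold higher than mock: Prdx4, Gpx8, Ptgr1, Cbr1 and Osgin1. Another 3 were at least 2-fold lower in both: Pir, Ephx1 and Abcc4. The antioxidant genes past 2-fold were 11.1% of the 45 on the higher side, where the share of all 19935 genes was 1.19%, and 6.67% on the lower side, where it was 1.81%. A gene was said to rise or fall if it also had a limma adjusted p under 0.05 over all genes. By that rule Prdx4, Ptgr1 and Cbr1 rose, against 0.401% of all genes that rose, and Pir and Ephx1 fell, against 0.762% of all genes that fell. The remaining 37 genes were not 2-fold from mock in both clones. These shares are given as a description, since the list was chosen with earlier results of these data known.

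**Figure D1:**
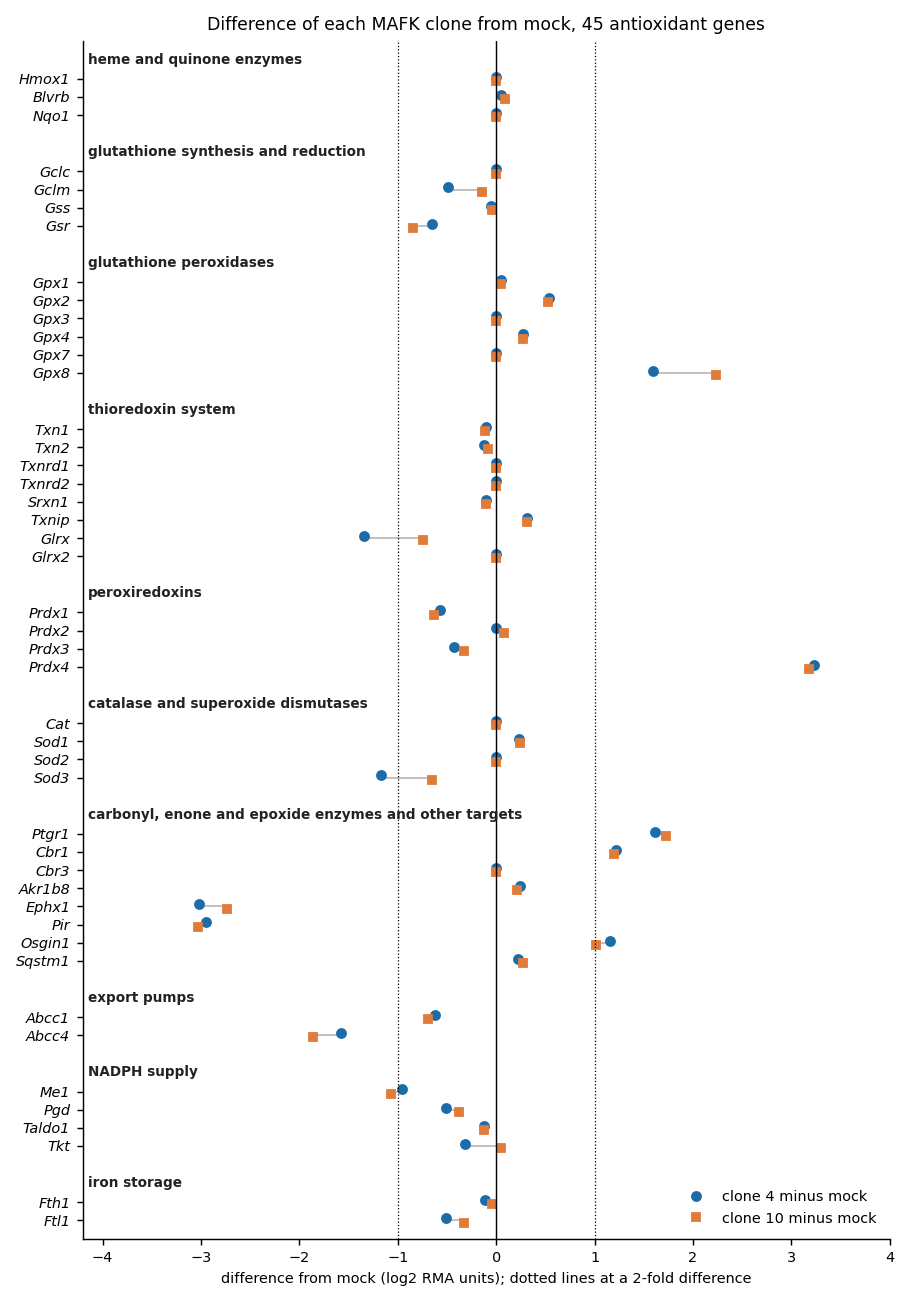
Difference of MAFK clone 4 (circles) and clone 10 (squares) from the mock array for the 45 antioxidant genes, in log2 RMA units, grouped by role, with dotted lines at a 2-fold difference. Prdx4 lies furthest to the right at 3.23 in clone 4 and 3.18 in clone 10, Pir and Ephx1 lie furthest to the left, and most other genes sit between the dotted lines.

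Prdx4 encodes the peroxiredoxin of the endoplasmic reticulum, which reduces hydrogen peroxide formed during oxidative protein folding. It read 8.87 in clone 4 and 8.81 in clone 10, against 5.63 in mock. Both clones were above the array medians and mock was below, and the clones were 1.04-fold apart. Prdx4 rose 9.22-fold, or 3.21 ± 0.08 log2 units (SE), and its limma adjusted p was 0.0256. It ranked 15th among all genes for the smaller of its clones' increases. The adjusted p stayed between 0.0151 and 0.0381 under every other setting of the test that was tried.

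Pir encodes pirin, an iron-binding nuclear protein known in human cells as an NRF2 target. It read 6.27 in clone 4 and 6.20 in clone 10, against 9.23 in mock. Here the clones lay below the array medians and mock above. Pir fell 7.96-fold, a log2 difference of -2.99 ± 0.08 (SE), and its limma adjusted p was 0.0258. The adjusted p ranged from 0.0151 to 0.0381 under the other settings of the test.

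Prdx4 and Pir both lie on the X chromosome and are the 2 X-linked genes of the list. Among the 739 measured X-linked genes, 15 (2.03%) exceeded mock at least 2-fold in both clones, and 18 (2.44%) were lower by at least that much. For the X-linked RNA Xist the log2 difference from mock was -6.22 in clone 4 and -6.31 in clone 10. The part of any X-wide difference in the values of Prdx4 and Pir was not tested. Over the 43 genes on other chromosomes, 4 (9.3%) were at least 2-fold higher and 2 (4.65%) at least 2-fold lower in both clones. The shares of all genes were 1.19% and 1.81%. Of these 6 genes, 2 rose and 1 fell, where 0.401% of all genes rose and 0.762% fell.

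Ephx1 encodes microsomal epoxide hydrolase, which opens reactive epoxides to diols. It read 8.38 in clone 4 and 8.66 in clone 10, against 11.40 in mock. Ephx1 fell 7.35-fold, a log2 difference of -2.88 ± 0.16 (SE), and mock lay far above both clones (limma adjusted p = 0.0438). Ptgr1, whose product reduces alkenals and oxidised eicosanoids, read 7.93 in clone 4 and 8.05 in clone 10, against 6.32 in mock. Ptgr1 rose 3.17-fold, or 1.67 ± 0.09 log2 units (SE; limma adjusted p = 0.0439). Cbr1, a carbonyl reductase of quinones and prostaglandins, read 7.34 in clone 4 and 7.31 in clone 10, against 6.11 in mock, and rose 2.32-fold, or 1.21 ± 0.07 log2 units (SE; limma adjusted p = 0.0461). All 3 calls sit near the threshold. The mock values of Prdx4, Ptgr1 and Cbr1 and the clone values of Pir lie within the range of the endothelial markers on these arrays, 5.20 to 6.39. Whether they are above background is not shown by the RMA values, so each fold and SE describes those values and not the amount of RNA. Ephx1 had a limma adjusted p of 0.0665, and Ptgr1 one of 0.0536, after a second quantile normalization. With a robust prior the limma adjusted p was 0.0583 for Ephx1 and 0.0501 for Ptgr1, and with the mean of all probe sets of each gene it was 0.0513 for Ephx1 and 0.0506 for both Ptgr1 and Cbr1. Cbr3, the paralog of Cbr1, read 5.80 on all 3 arrays.

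Gpx8, Osgin1 and Abcc4 were at least 2-fold from mock in both clones but did not pass the test. Gpx8 encodes a glutathione peroxidase family member anchored in the endoplasmic reticulum membrane, and read 10.36 in clone 4 and 11.01 in clone 10, against 8.78 in mock. Its clones were 1.57-fold apart, the widest gap between clones of the 8 genes, and its limma adjusted p was 0.155 for a mean difference of 3.76-fold. Osgin1, an oxidative stress-induced growth inhibitor, read 10.38 in clone 4 and 10.23 in clone 10, against 9.22 in mock, 2.12-fold higher (limma adjusted p = 0.0766, and 0.0459 with a prior from all genes). Osgin1 lies on chromosome 8, where 55.2% of genes were above mock in both clones, against 33.7% of all genes. Less the median difference of its chromosome, 0.05 in each clone, Osgin1 was no longer 2-fold higher in both clones. Its mean log2 difference went from 1.08 to 1.03, and clone 10 had stood at 1.01 before that median was taken off. Over chromosome 8 the mean difference was 0.12 in each clone, against 0.01 over all genes. The part of the chromosome in the value of Osgin1 was not otherwise tested. Abcc4, a pump that exports cyclic nucleotides and conjugates, read 8.81 in clone 4 and 8.52 in clone 10, against 10.38 in mock, 3.29-fold lower (limma adjusted p = 0.0774). It lies on chromosome 14, where 36.4% of genes were below mock in both clones, against 17.9% of all genes. At least 2-fold from mock in both clones, 2.72% of its genes were lower and 0.716% higher, against 1.81% and 1.19% of all genes. The median difference of chromosome 14 was 0.00 in each clone, and the mean was -0.16 in clone 4 and -0.08 in clone 10. The part of the chromosome in the value of Abcc4 was not otherwise tested.

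**Figure D2:**
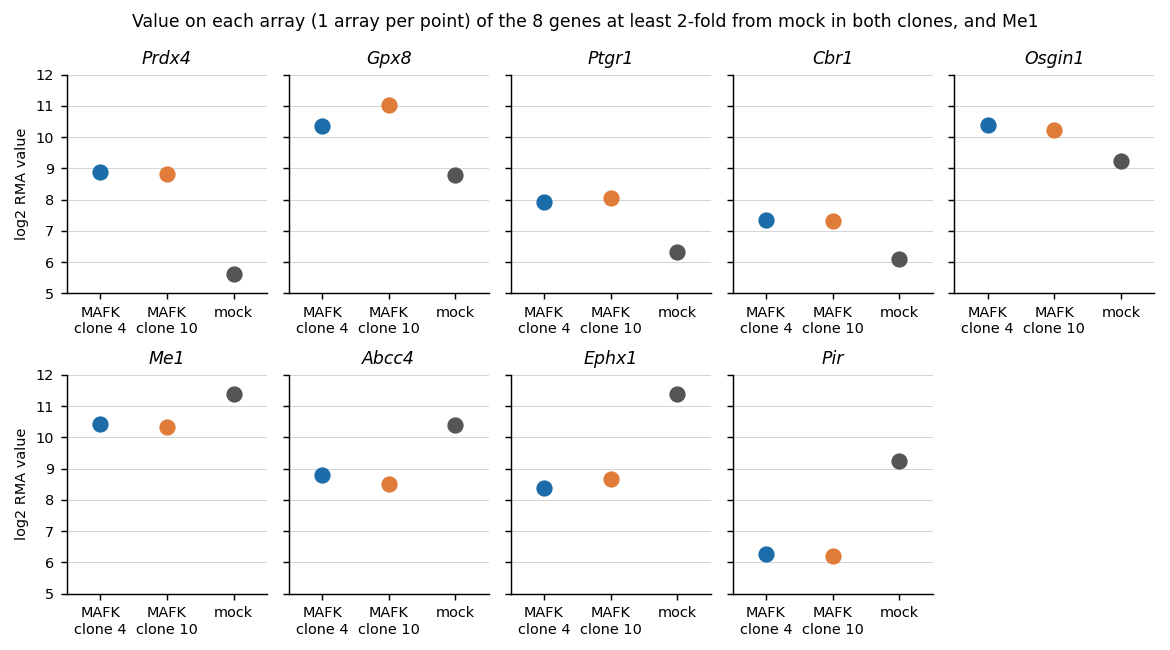
Log2 RMA value on each array (clone 4, clone 10, mock) of the 8 genes at least 2-fold from mock in both clones, and of Me1. In the upper row both clones lie above mock (Prdx4 at 8.87 and 8.81 against 5.63), and in the lower row both lie below it (Pir at 6.27 and 6.20 against 9.23), while the clones lie close together except in Gpx8.

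Promoter sequences were set beside these values to show which short motifs the genes carry near their start. RefSeq windows on GRCm38.p6, each from 250 bases before to 50 bases after an annotated transcript start, were at hand for 41 of the 46 genes, in 55 windows, some of which overlap within a gene. The motifs searched on both strands were TGACNNNGC, the core of the antioxidant response element, TGACTCA, a core shared by AP-1 and MAF recognition elements, and TGCTGA, the MAF half-site. A run such as TGACTCAGC counts for the first and second motif at once, and TGCTGA can overlap TGACTCA. The windows of Pir and Prdx4 are shown because these genes differed most, that of Osgin1 because a MAF half-site and TGACTCA overlap in it, that of Me1 because an antioxidant response core lies next to its start, that of Gpx8 for its MAF half-sites, and that of Prdx1 as a well-known NRF2 target. Each is given 5′ to 3′ along the gene's strand, with every match in capitals.
Pir (chrX:164269181-164269480, plus strand): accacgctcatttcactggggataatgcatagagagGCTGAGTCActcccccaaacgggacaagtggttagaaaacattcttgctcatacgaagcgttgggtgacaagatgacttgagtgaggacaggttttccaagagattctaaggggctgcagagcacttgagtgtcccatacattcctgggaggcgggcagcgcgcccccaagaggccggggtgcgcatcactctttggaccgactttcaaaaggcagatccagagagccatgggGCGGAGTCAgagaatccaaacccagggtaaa
Prdx4 (chrX:155338411-155338710, minus strand): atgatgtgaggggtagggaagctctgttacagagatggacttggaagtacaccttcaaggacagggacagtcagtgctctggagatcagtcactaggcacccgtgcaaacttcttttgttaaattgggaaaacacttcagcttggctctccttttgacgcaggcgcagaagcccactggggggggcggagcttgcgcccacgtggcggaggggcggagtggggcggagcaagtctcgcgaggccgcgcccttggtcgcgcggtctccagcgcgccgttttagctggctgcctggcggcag
Osgin1 (chr8:119436897-119437196, plus strand): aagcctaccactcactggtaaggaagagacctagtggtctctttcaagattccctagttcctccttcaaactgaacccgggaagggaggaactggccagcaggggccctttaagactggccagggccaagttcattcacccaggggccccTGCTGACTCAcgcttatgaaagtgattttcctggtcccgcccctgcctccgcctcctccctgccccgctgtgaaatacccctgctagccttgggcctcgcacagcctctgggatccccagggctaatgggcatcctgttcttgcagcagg
Me1 (chr9:86695865-86696164, minus strand): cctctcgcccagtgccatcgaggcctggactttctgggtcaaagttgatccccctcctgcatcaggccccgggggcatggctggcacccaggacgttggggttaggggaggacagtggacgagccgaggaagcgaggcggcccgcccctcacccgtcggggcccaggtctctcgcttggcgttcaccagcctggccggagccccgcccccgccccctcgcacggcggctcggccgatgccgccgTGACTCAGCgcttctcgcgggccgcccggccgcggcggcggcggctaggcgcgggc
Gpx8 (chr13:113046339-113046638, minus strand): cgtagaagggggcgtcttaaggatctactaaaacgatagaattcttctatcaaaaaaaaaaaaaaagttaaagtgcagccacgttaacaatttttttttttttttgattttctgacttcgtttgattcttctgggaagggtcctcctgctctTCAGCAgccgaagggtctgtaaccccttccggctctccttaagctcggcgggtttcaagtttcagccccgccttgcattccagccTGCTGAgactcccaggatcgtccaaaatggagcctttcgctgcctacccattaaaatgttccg
Prdx1 (chr4:116685349-116685648, plus strand): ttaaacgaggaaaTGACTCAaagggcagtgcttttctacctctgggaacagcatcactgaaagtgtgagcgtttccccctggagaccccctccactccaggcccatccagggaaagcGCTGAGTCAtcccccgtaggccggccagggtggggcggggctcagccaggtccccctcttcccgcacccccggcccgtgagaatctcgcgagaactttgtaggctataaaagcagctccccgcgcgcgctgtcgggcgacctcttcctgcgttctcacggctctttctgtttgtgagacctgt

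The Pir window holds TGACNNNGC on its reverse strand 214 bases before the start and again 20 bases into the transcript, and the earlier match also reads TGACTCA. No searched motif lies in the window of Prdx4. Osgin1 has a MAF half-site beginning 100 bases before the start that runs into TGACTCA. In Me1 the antioxidant response core begins 6 bases before the start. Gpx8 has MAF half-sites 98 and 13 bases before the start, and Prdx1 has a core overlapping TGACTCA near 133 bases before it. On 1 strand the cores of Pir, Me1 and Prdx1 that overlap TGACTCA all read TGACTCAGC. Of the 5 genes at least 2-fold higher in both clones, none holds TGACNNNGC in its window, and of the 3 genes at least 2-fold lower, 2 do (Pir and Abcc4). By gene, 22% of the 41 antioxidant genes and 14% of all 27025 genes hold TGACNNNGC in at least 1 window. With so few genes on each side, whether the motif goes with direction was not tested. TGACNNNGC is present in 10 of the 55 windows (18.2%), against 12.4% of all 32851 windows of this length. TGACTCA is in 7 of the 55 (12.7%), against 5.2% of all, and TGCTGA in 8 of the 55 (14.5%), against 19.5%. A match is a run of letters and not a bound site, and elements further from the start lie outside these windows.

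**Figure D3:**
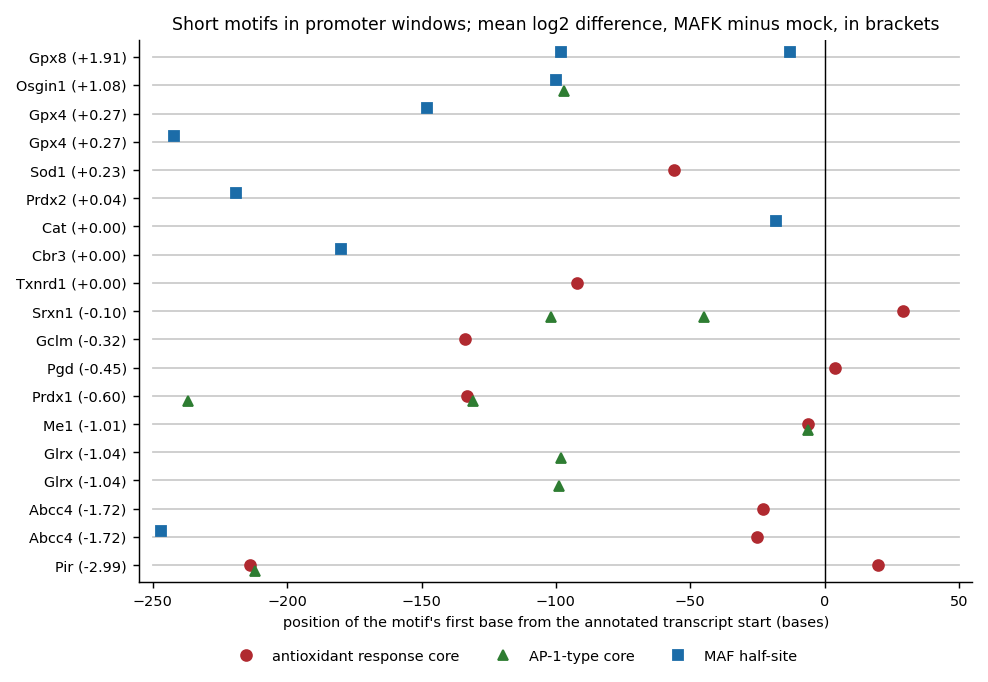
Position of each motif match from the annotated transcript start, in bases, in the windows of antioxidant genes that hold at least 1 match, ordered by the mean log2 difference of MAFK minus mock given in brackets. Genes with a match in more than 1 window appear more than once. Antioxidant response cores (circles) appear in Pir, at 214 bases before the start, Abcc4, Me1, Prdx1, Pgd, Gclm, Srxn1, Txnrd1 and Sod1. Of these, Sod1 has a positive mean difference of 0.23.

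Hmox1, Nqo1, Gclc, Gclm, Txnrd1, Srxn1 and Prdx1 are often measured as NRF2 targets, and none of the 7 was 2-fold from mock in both clones. Since 1.19% of all genes were at least 2-fold higher and 1.81% lower, none among 7 is near the background. Hmox1 (heme oxygenase) read 8.56, Nqo1 (the quinone reductase) 5.61, Gclc (the catalytic subunit of glutamate-cysteine ligase) 10.81 and Txnrd1 (cytosolic thioredoxin reductase) 9.38 on all 3 arrays. These identical readings come from a summary that returned the same value on all 3 arrays for 6846 of all genes (34.3%), and for 10 of the 45 antioxidant genes (22.2%), so they do not show that the transcripts were unchanged. The Nqo1 value lay below the array medians, the other 3 above. Gclm, the regulatory subunit of the same ligase, read 11.07 in clone 4 and 11.41 in clone 10, against 11.56 in mock (limma adjusted p = 0.626). Srxn1, which repairs over-oxidised peroxiredoxins, read 8.47 in both clones, against 8.57 in mock (limma adjusted p = 0.727, and 0.0495 with a prior from all genes). Blvrb, which encodes biliverdin reductase B, read 9.52 in clone 4 and 9.56 in clone 10, against 9.47 in mock.

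Of the 10 listed genes of glutathione synthesis, glutathione reduction and glutathione peroxidases, Gpx8 was past 2-fold in both clones and none passed the test. As 0.401% of all genes rose and 0.762% fell, none passing among 10 is near the background. Gsr, which regenerates reduced glutathione, read 10.71 in clone 4 and 10.52 in clone 10, against 11.37 in mock, 1.68-fold lower without passing (limma adjusted p = 0.14). Gss, the second enzyme of glutathione synthesis, read 9.03 in clone 4 and 9.04 in clone 10, against 9.08 in mock. Of the other peroxidases, Gpx2, described mainly in gut epithelium, read 6.37 in clone 4 and 6.36 in clone 10, against 5.83 in mock, with all arrays below their medians. Gpx4, which acts on lipid hydroperoxides, read 10.89 in both clones, against 10.62 in mock, and its other probe set had smaller differences of 0.13 in clone 4 and 0.12 in clone 10. Gpx1, the main cytosolic enzyme, was 0.05 above mock in both clones. Gpx3, the secreted plasma form, read 6.22 and Gpx7 6.33 on every array, below the medians. Gpx7, like Gpx8 and Prdx4, encodes a peroxidase of the endoplasmic reticulum.

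In the thioredoxin and peroxiredoxin systems, Prdx4 alone passed the test, where 0.401% of all genes rose and 0.762% fell. Of the 12 measured genes, 2 were above mock in both clones, 6 below and 3 equal on all arrays. Over all genes 33.7% were above, 17.9% below and 34.3% equal. Prdx1, a cytosolic peroxiredoxin, read 11.59 in clone 4 and 11.53 in clone 10, against 12.17 in mock (limma adjusted p = 0.107, and 0.0354 with a prior from all genes). The other Prdx1 probe set gave differences of -0.77 in clone 4 and -0.78 in clone 10. Both Prdx1 probe sets thus read lower in both clones. Mitochondrial Prdx3 read 10.01 in clone 4 and 10.11 in clone 10, against 10.44 in mock. Prdx2, another cytosolic form, read 12.35 in clone 4 and 12.43 in clone 10, against 12.35 in mock. Thioredoxin itself (Txn1) had log2 differences of -0.10 in clone 4 and -0.11 in clone 10, and mitochondrial Txn2 of -0.12 and -0.08. Txnip, the arrestin-like protein that binds reduced thioredoxin, read 9.92 in both clones, against 9.61 in mock. Txnrd2, the mitochondrial reductase, and Glrx2, the mitochondrial glutaredoxin, had the same value on all 3 arrays, 7.64 and 10.74.

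Glrx and Sod3 were lower in both clones, more so in clone 4. Glrx, the cytosolic glutaredoxin that removes glutathione from proteins, read 8.32 in clone 4 and 8.91 in clone 10, against 9.65 in mock (limma adjusted p = 0.274). Sod3, the extracellular superoxide dismutase, read 8.45 in clone 4 and 8.98 in clone 10, against 9.62 in mock (limma adjusted p = 0.278). Clone 4 was 2-fold below mock for both genes and clone 10 was not. The clones differed from each other 1.51-fold for Glrx and 1.44-fold for Sod3, a difference that has no test with 1 array per clone. Sod1, the cytosolic dismutase, read 12.33 in both clones, against 12.10 in mock. Sod2, its mitochondrial counterpart, read 10.93 and catalase (Cat) 11.16 on each array.

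Of the 4 genes of malic enzyme and the pentose phosphate pathway, 3 were below mock in both clones and none passed the test. The export pump gene Abcc1 did not pass either. Over all genes 17.9% were below mock in both clones, 0.401% rose and 0.762% fell, so none passing among 4 is near the background. Me1, malic enzyme, read 10.44 in clone 4 and 10.34 in clone 10, against 11.40 in mock, 2.02-fold lower on average (limma adjusted p = 0.0712, and 0.0373 with a prior from all genes). With a difference of -0.96 in clone 4 and -1.07 in clone 10, Me1 lay just inside 2-fold in clone 4, while its other probe set gave -1.03 and -1.09. Pgd, the 6-phosphogluconate dehydrogenase of the pentose phosphate pathway, read 10.49 in clone 4 and 10.62 in clone 10, against 11.00 in mock. The later enzymes of that pathway were closer to mock, with a log2 difference of -0.12 in both clones for Taldo1, and of -0.32 in clone 4 but 0.05 in clone 10 for Tkt. Abcc1, a pump of glutathione conjugates, read 9.40 in clone 4 and 9.34 in clone 10, against 10.03 in mock (limma adjusted p = 0.0994, and 0.0359 with a prior from all genes). Ferritin light chain (Ftl1) read 12.54 in clone 4 and 12.72 in clone 10, against 13.05 in mock, and the heavy chain (Fth1) had log2 differences of -0.11 in clone 4 and -0.04 in clone 10. The autophagy receptor gene Sqstm1, whose product binds KEAP1, was higher by 0.22 in clone 4 and 0.27 in clone 10, and the aldo-keto reductase gene Akr1b8 by 0.24 and 0.21.

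At a threshold of 1.5-fold in both clones, 5 antioxidant genes were higher, where 2.54% of all genes were, and 8 were lower, where 3.63% of all genes were. The 8 comprised Pir, Ephx1, Abcc4, Me1, Glrx, Sod3, Gsr and Abcc1. The 5 higher genes were those already past 2-fold.

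**Figure D4:**
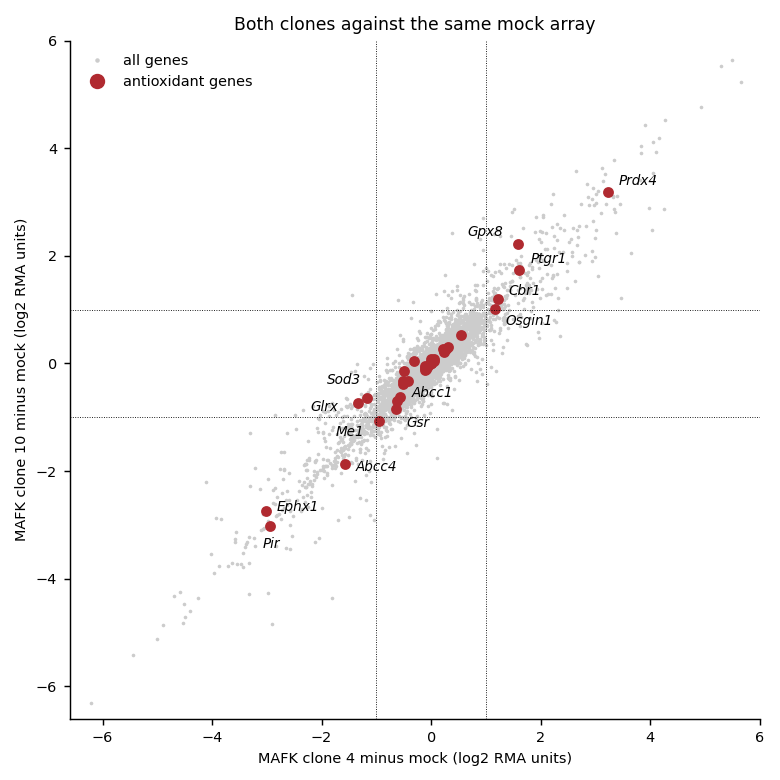
Difference from mock in MAFK clone 10 against that in clone 4 (log2 RMA units) for all 19935 genes (grey) and the 45 antioxidant genes (red), with dotted lines at 2-fold and names for genes at least 1.5-fold from mock in both clones. Both axes share 1 mock array, which by itself draws points along the diagonal; Gpx8 is higher in clone 10 (2.23) than in clone 4 (1.59), and Glrx and Sod3 are lower in clone 4.

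In direction alone, 13 of the 45 antioxidant genes (28.9%) exceeded mock in both clones and 19 (42.2%) were under it in both, while 10 were equal on all arrays and 3 did neither. For all genes the shares were 33.7% above it and 17.9% below it. Across the 45 genes the median difference was 0.00 in each clone, as it was over all genes. Their mean difference was -0.11 in clone 4 and -0.05 in clone 10, against 0.01 in each clone over all genes. Differences within the list ranged from -3.02 to 3.23 in clone 4 and from -3.03 to 3.18 in clone 10.

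**Figure D5:**
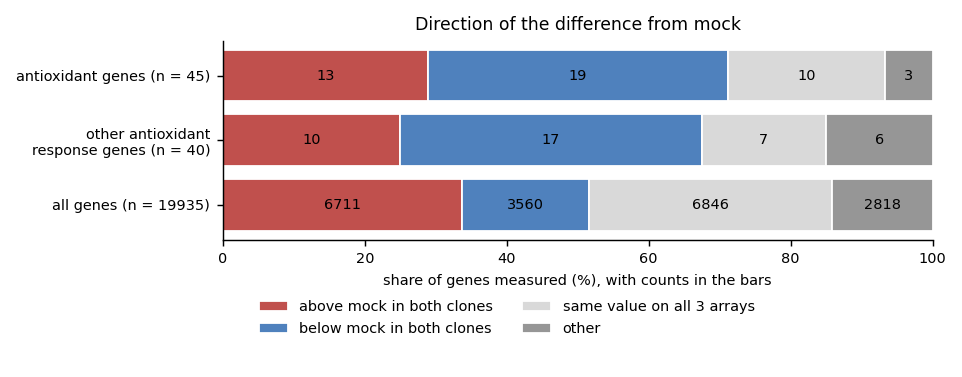
Share of genes above mock in both clones, below it in both, with the same value on all 3 arrays, or with none of these patterns, for the 45 antioxidant genes, 40 other antioxidant response genes and all 19935 genes. The share below mock in both clones is 42.2% for the antioxidant genes, 42.5% for the other response genes and 17.9% for all genes.

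Of 15 measured regulators of the response, none was 1.5-fold from mock in both clones and none passed the test. At 1.5-fold in both clones 2.54% of all genes were higher and 3.63% lower, while 0.401% of all genes rose and 0.762% fell. A count of 0 among 15 is near these shares. Nfe2l2, which encodes NRF2, read 11.22 in clone 4 and 11.25 in clone 10, against 11.17 in mock. Keap1 read 8.44 in both clones, against 8.42 in mock, and Bach1 8.56 in both clones, against 8.51 in mock. Mafk read 8.74 in clone 4 and 8.59 in clone 10, against 8.49 in mock. The largest differences of the list were those of Maff, another small MAF gene, at 0.49 in clone 4 and 0.20 in clone 10 (limma adjusted p = 0.466), and of Rbx1, a ubiquitin ligase subunit, at 0.31 and 0.38 (limma adjusted p = 0.199). It was not analysed whether the Mafk probes read the FLAG-MafK transcript, and the Mafk value is no check of the labels. Nfe2l1, Nfe2l3, Nfe2, Mafg, Trim21 and Btrc had the same value on all 3 arrays.

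In both clones, 1 of 40 other measured antioxidant response genes exceeded mock at least 2-fold and 6 were lower by at least that much. These are 2.5% and 15% of the list, where the shares of all genes were 1.19% and 1.81%. Abcc3, an organic anion pump, rose 5.88-fold, to 9.67 in clone 4 and 9.60 in clone 10, against 7.08 in mock (limma adjusted p = 0.0293). The pumps Abcc3 and Abcc4 thus lay on opposite sides of mock. No gene of this list fell by the rule used here. The 6 lower genes encode glutathione transferases (Gstm2, Gstp1 and Gsta4), a cystine carrier (Slc7a11), an aldehyde dehydrogenase (Aldh3a1) and a sestrin (Sesn3), and were 2.37-fold to 6.64-fold lower. Their limma adjusted p-values ran from 0.0591 to 0.254. Gstm2 read 7.07 in clone 4 and 7.87 in clone 10, against 10.20 in mock. Gstp1 read 8.54 in clone 4 and 9.08 in clone 10, against 11.39 in mock. Gsta4 read 8.53 in clone 4 and 8.24 in clone 10, against 10.73 in mock. These enzymes join glutathione to electrophiles. Of the 10 measured transferase genes of the list, microsomal ones included, 6 were below mock in both clones, 3 above it (Gstm1, Gstm3 and Mgst1) and 1 equal on all arrays (Gsta3). The shares of all genes were 17.9% below, 33.7% above and 34.3% equal. Gstm1 read 7.07 in clone 4 and 8.46 in clone 10, against 6.81 in mock, so that its clones were far apart. Aldh3a1, which oxidises aldehydes, read 7.87 in clone 4 and 7.98 in clone 10, against 9.17 in mock. Slc7a11 imports the cystine from which glutathione is made, and read 6.70 in clone 4 and 5.85 in clone 10, against 7.84 in mock. Sesn3 read 8.07 in clone 4 and 8.85 in clone 10, against 10.13 in mock. In both genes the clones were apart by more than 0.7 on the log2 scale, in opposite orders.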

How the data were processed

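The authors deposited 1 log2 value for each probe set and array, and the submitters' processing notes name RMA. The RMA version, genome build and filters are not given in the sources used here. Of 28815 probe sets, 21780 had 1 gene symbol in the platform annotation, 1605 had several and 5430 had none, and only the first were named. Entrez identifiers matched 21689 of them to RefSeq's table for GRCm38.p6, which gave current symbols. The probe set with the highest mean stood for a gene.

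Differences were taken from mock in each clone. Values were called equal when they differed by less than 1e-08. MAFK was compared with mock with limma 3.58.1 in R 4.3.3 on all 3 arrays, two-sided, with Benjamini-Hochberg adjustment over 19935 genes. Each gene had 1 residual degree of freedom, from the clones alone, and mock was taken to have the same spread. Because 55.5% of genes had equal values in both clones, the prior (1.93 degrees of freedom, SD 0.0694) was estimated from the other 8873 genes and applied to all. Genes equal in both clones have the smallest standard error, 0.069, which favours passing. The script was tested on simulated data. In those data mock had the same spread as the clones, so the spread of mock cells could not be checked.

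All members are accounted for. Arrays are given in full for the classical targets, for genes at least 1.5-fold from mock in both clones and for genes whose clones differ 1.5-fold, and for some others chosen after their values were seen. The members, lists and tests were chosen with earlier results of these data known. Alternatives covered the normalization, a filter on low values, the probe set, the prior, chromosome medians, the fold threshold and each clone left out.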

Additional observations from a re-analysis of the deposited data

How the results depend on the processing

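The 5 genes at least 2-fold higher in both clones were 5 under every alternative tried except chromosome centring, which left 4 without Osgin1, and the removal of X-linked genes (chosen after seeing the data), which left 4 without Prdx4. The 3 lower genes became 4 or 5 with clone 4 or clone 10 left out in turn (values with no test), 8 at 1.5-fold, and 2 without X-linked genes. The 3 genes that rose became 1, Prdx4, with the mean of all probe sets of a gene, 2 after a second quantile normalization, with a robust prior or without X-linked genes, and 4 with a prior from all genes. The 2 that fell became 1, Pir, with that mean, with a second quantile normalization and with a robust prior, and 1, Ephx1, without X-linked genes. The median difference in clone 4 of 0.00 became -0.02 after a second quantile normalization, -0.02 with low genes left out, -0.05 after chromosome centring and -0.10 without genes equal on all arrays. In clone 10 it became -0.01 after a second quantile normalization and -0.04 without genes equal on all arrays. No gene past 1.5-fold in both clones changed direction. The causes of these shifts were not tested. No paired analysis was possible because mock cells were measured on 1 array. Several lower values, among them Prdx4, Ptgr1 and Cbr1 in mock and Pir in the clones, lie below the array medians, near the low end of the scale.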
